A study of Zea mays with 12 samples.

Results

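Plasma membrane intrinsic proteins (PIPs) are the aquaporins of the plant cell surface. The 8 maize genes described here were taken by name and gene identifier, as 8 of the 110005 rows of the expression table: PIP1-3 (GRMZM2G392975), PIP1-5 (GRMZM2G081843), PIP2-1 (GRMZM2G014914), PIP2-2 (GRMZM2G092125), PIP2-3 (GRMZM2G081192), PIP2-4 (GRMZM2G154628), PIP2-5 (GRMZM2G178693) and PIP2-6 (GRMZM2G047368). All 8 passed the filter on low values and were among the 32548 genes tested. The values came from bundle sheath (BS) and mesophyll (M) cells of maize inbred Mo17, the cultivar of all 12 labels (the study's methods name B73 as well), cut by laser from acetone-preserved and embedded sections of the third leaf of seedlings aged 9 days. The first section lay 1 cm below the sink–source transition of the leaf, the second 4 cm above it and the third, near the tip, 9 cm above it. They are called here SST, maturing and mature. Each of the 6 combinations of stage and cell type had 2 libraries, 12 in all, and the labels give no mutation or treatment for any group. Nothing in the sources used here says whether the libraries of a group came from separate plants, so p-values measure only the spread between these libraries, which may be technical.

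Aquaporins are membrane channels that assemble as tetramers, with a pore in each subunit. In maize, PIP2 proteins expressed in frog oocytes raise the water permeability of the membrane strongly, whereas PIP1 proteins do little alone and reach the plasma membrane in company with PIP2 partners. In a C4 leaf the BS forms a ring around each vein, so that water leaving the xylem has to pass the BS on its way to the M. Some PIPs are also known to pass small molecules other than water, such as hydrogen peroxide.

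Transcript levels are given as FPKM (fragments per kilobase of transcript, relative to the mapped fragments of the library), scaled so that the libraries shared an upper quartile of 2.55 FPKM. Fitted differences are on the log2(FPKM + 0.255) scale, which understates the changes of low genes. A gene is called between 2 groups when its Benjamini-Hochberg adjusted p from limma, over all genes tested, was below 0.01. Every fit pooled the spread of a gene over the 6 groups. When only the libraries of the groups compared were fitted, 5 of the 31 calls made for the 8 genes remained past the threshold.

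The cell type labels were checked with marker genes. The summed level of 6 BS markers (including NADP-ME, PEPCK and the Rubisco small subunit ssu1) was 8208 to 8919 FPKM in SST BS against 1209 to 1220 in SST M, 20231 to 21576 against 789 to 849 at maturing, and 21345 to 32011 against 2031 to 2476 at mature. For 6 M markers (including PPDK and PepC) the sum was 8470 to 8547 FPKM in SST BS against 22081 to 26709 in SST M, 16136 to 16867 against 48878 to 52216 at maturing, and 15035 to 22706 against 38953 to 47728 at mature. PPDK carried most of the M sum in every group, with group means of 8154 to 47364 FPKM against 16.4 to 133 for PepC. Taken singly, each of the 6 M markers was fitted higher in M at each stage. Each capture also held transcripts of the other cell type's markers. Vascular markers, 5 of 6 of them above 0 in some library, summed to 150 to 165 FPKM in SST BS against 65.4 to 67.4 in SST M, 314 to 327 against 39.0 to 48.4 at maturing, and 83.4 to 115 against 56.0 to 57.4 at mature. The 3 epidermal markers summed to 0.899 to 5.58 FPKM in BS and 4.68 to 15.6 in M. Of them, ocl4 never exceeded 0.117 FPKM and was not tested, and ocl1 and gl1 were called between BS and M at no stage. The listed epidermal genes gl2, gl3, gl4 and gl8 and the vascular gene tdy1 were matched to no row. The sucrose transporter sut1 carried most of the vascular sum in BS at SST and maturing, and the secondary wall gene cesa12 was at 0 in both mature BS libraries. Whether marker transcripts of other cell types came from admixed cells or from the captured cells themselves was not tested. The part of any admixture in the PIP values was not tested either. In captured tissue fewer cells of a type cannot be told apart from less RNA per cell.

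**Figure D1:**
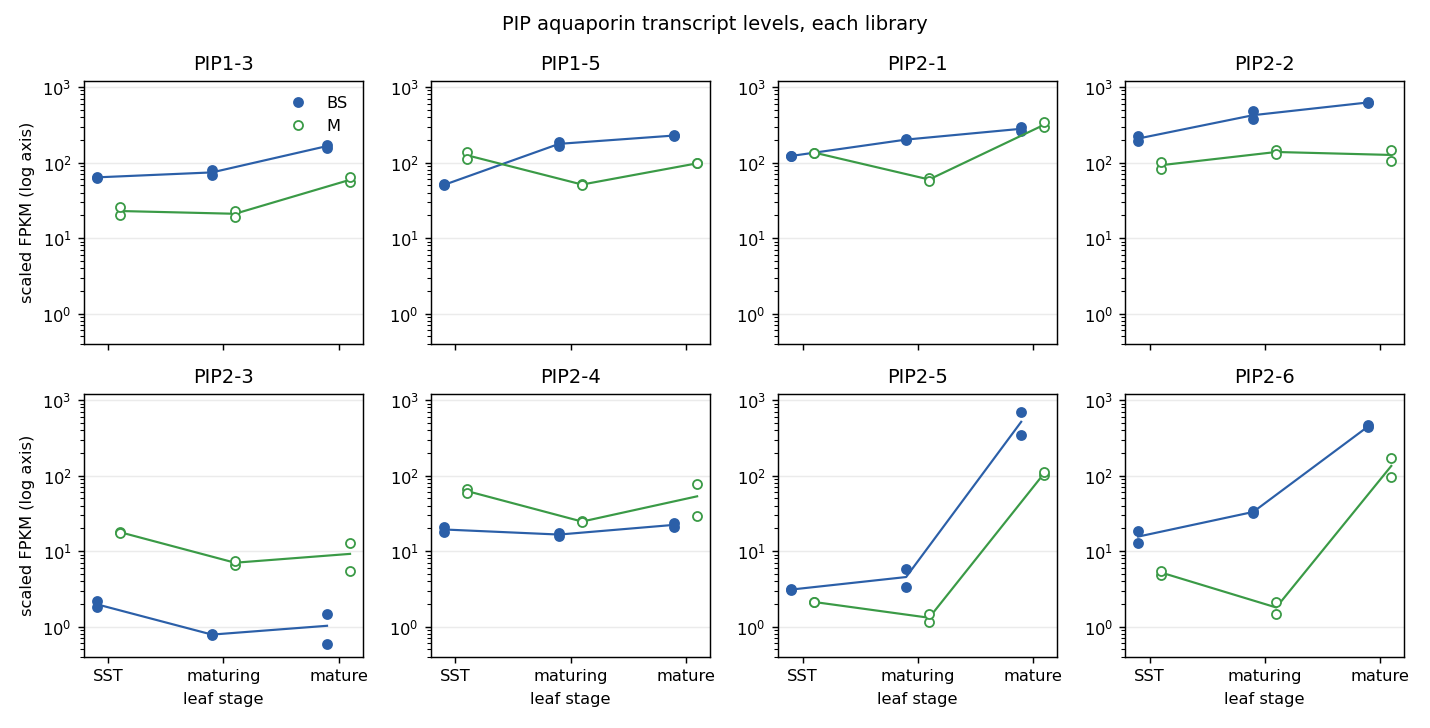
Scaled FPKM (log axis) of each PIP gene in every library, by leaf stage, with filled points for BS, open points for M and lines through the means of the 2 libraries. PIP2-5 and PIP2-6 climb from maturing to mature in both cell types, PIP1-5 crosses from M to BS after SST, and PIP2-3 lies higher in M at every stage.

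Summed over the 8 genes, PIP transcripts stood at 485 ± 20.4 FPKM (SD, n = 2) in SST BS and 464 ± 7.11 in SST M, a ratio of 1.05. At maturing the total was 932 ± 93.2 FPKM (n = 2) in BS and 305 ± 16.9 in M, 3.06-fold higher in BS. At mature it was 2286 ± 258 FPKM (n = 2) in BS and 904 ± 62.6 in M, 2.53-fold higher in BS. Along the leaf the total in BS grew 1.92-fold and then 2.45-fold, whereas in M it went to 0.657 of its SST level before growing 2.97-fold. These totals are descriptions and carry no test.

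The make-up of the total shifted at the mature stage. By the mean of the 2 libraries, PIP2-2 was the leading member in SST BS (42.9 ± 2.24%), maturing BS (45.4 ± 3.17%), maturing M (45.3 ± 0.494%) and mature BS (27.5 ± 2.81%), and PIP2-1 led in SST M (29.3 ± 0.447%) and mature M (35.0%, at 34.0 and 36.0% in the 2 libraries). In mature BS replicate 2 PIP2-5 was above PIP2-2, at 688 against 630 FPKM, and in SST M replicate 1 PIP1-5 was above PIP2-1, at 140 against 136. PIP2-5 and PIP2-6 together held 3.84 ± 0.616% of the SST BS total and 4.06 ± 0.439% of the maturing BS total, and in M 1.58 ± 0.130% at SST and 1.03 ± 0.287% at maturing. At mature they held 41.8 ± 6.75% in BS and 27.0 ± 7.09% in M. Without these genes the totals were 466, 894 and 1322 FPKM along the BS series and 456, 302 and 662 along the M series, so the same order of groups stood. The PIP1 genes, PIP1-3 and PIP1-5, held 31.9 ± 3.21% of the total in SST M and 17.3 to 27.0% in the other groups.

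**Figure D2:**
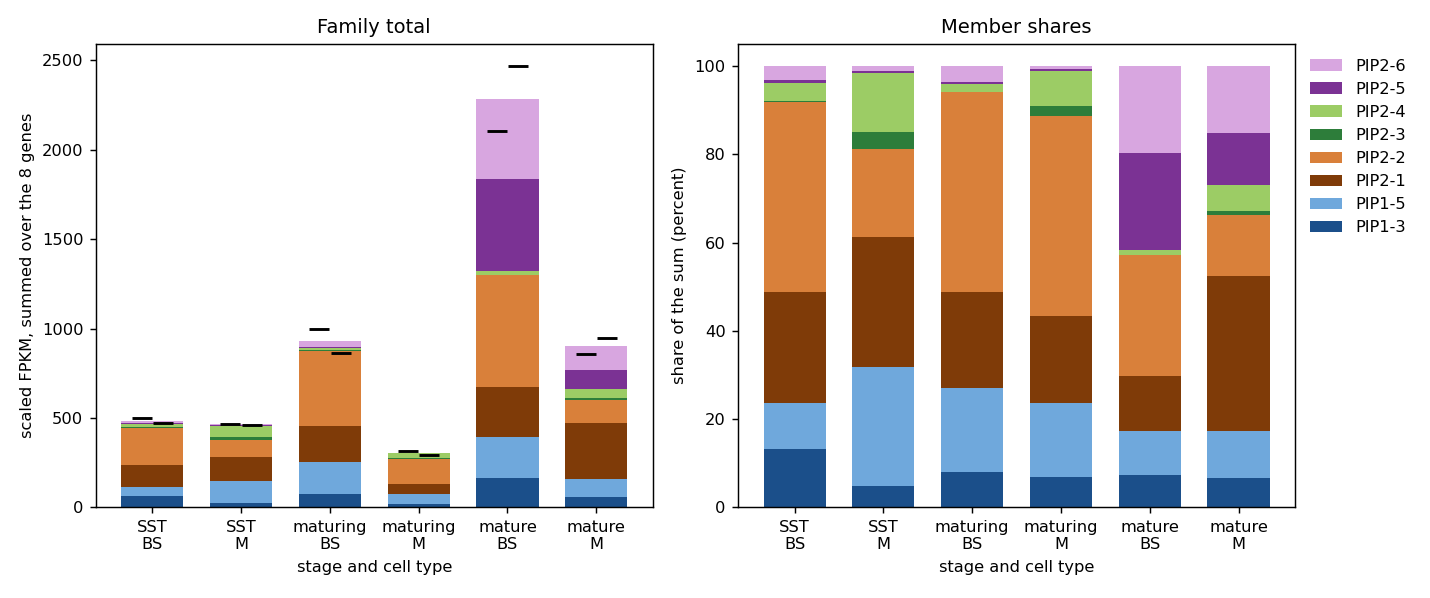
Left, scaled FPKM summed over the 8 PIP genes, as stacked means of the 2 libraries of each stage and cell type, with dashes for the total of each library. Right, the percent share of each gene in the total, as the mean over the 2 libraries. The totals of mature BS (2103 and 2469 FPKM) exceed all others, and PIP2-5 with PIP2-6 takes 41.8% there against 4.06% or less before mature.

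Of the 8 genes, 1 was called higher in BS and 2 higher in M at SST, where 1.64% and 1.44% of all genes tested were called in these directions. At maturing 5 were called higher in BS and 1 higher in M, against 4.82% and 3.56% of all genes. At mature 5 were again called higher in BS and 1 in M, against 3.66% and 2.07%. Over the 8 genes the fitted log2 BS/M had a median of 0.17 at SST, and of 1.68 and 1.35 at the later stages, where that of all genes tested was 0 each time. The summed BS and vascular markers were also higher in BS at each stage, and the epidermal markers higher in M, with the values given for each list. The vascular markers were split, however. Of the 4 tested, 3, 2 and 2 were fitted higher in BS at SST, maturing and mature, and only sut1 was called, at SST and maturing. The 3 stages are compared with each other by the tests of change given for each gene.

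**Figure D3:**
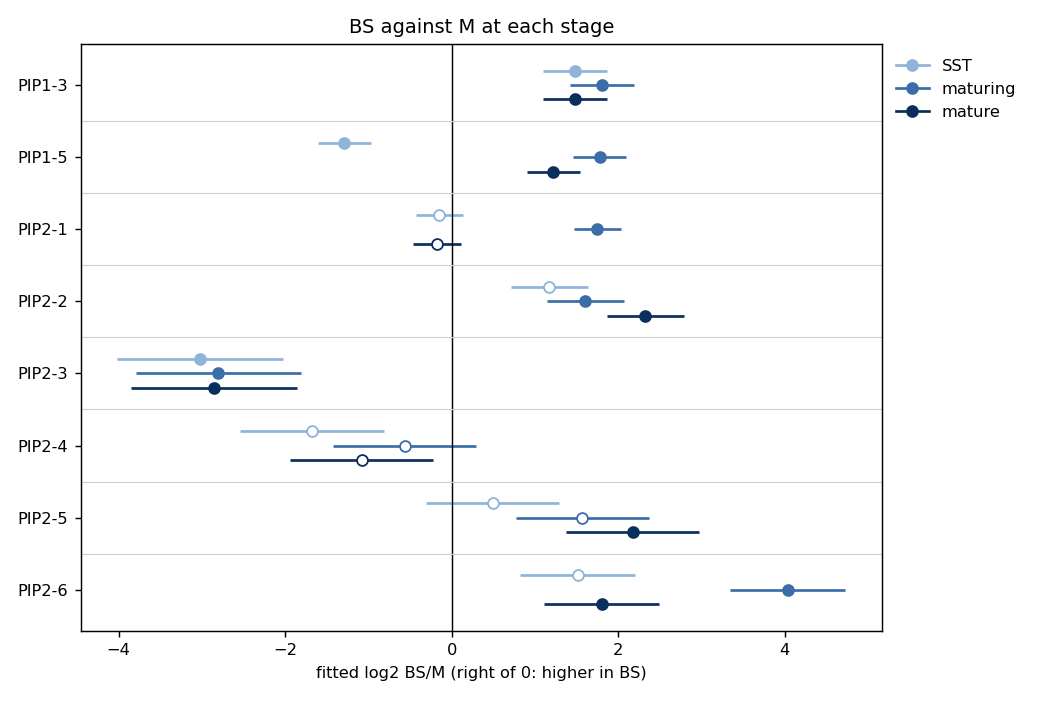
Fitted log2 BS/M (x axis) of each PIP gene at SST, maturing and mature, with 95% confidence intervals as bars and filled points where limma's adjusted p was below 0.01. PIP1-5 turns from −1.29 at SST to 1.78 at maturing, PIP2-1 lies right of 0 at maturing alone, and PIP2-3 stays near −3 throughout.

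PIP1-3, of the PIP1 group that depends on PIP2 partners in oocytes, was BS-enriched at every stage. Its libraries held 62.1 and 65.4 FPKM in SST BS against 20.1 and 25.6 in SST M, 79.5 and 68.7 against 22.8 and 19.2 at maturing, and 158 and 173 against 54.8 and 63.5 at mature. BS lay above M at each stage without overlap. The fitted log2 BS/M was 1.48 ± 0.17 (SE, limma adjusted p = 0.0022), 1.81 (adjusted p = 0.00032) and 1.48 (adjusted p = 0.0013). From maturing to mature it rose in both cell types, by 1.16 on the log2 scale in BS (limma adjusted p = 0.0016) and 1.48 in M (adjusted p = 0.00047). The rise in BS missed the threshold without mature BS replicate 2 (log2 change 1.10, adjusted p = 0.0102). Between SST and maturing the log2 change was 0.21 (95% interval −0.17 to 0.60) in BS and −0.12 (−0.50 to 0.27) in M. In the order of groups, SST BS and mature M overlapped, as did SST M and maturing M. The reference annotation, which was used for names and is of another assembly than the deposited values, gives a single entry for PIP1-3 and PIP1-4. Whether this row holds transcripts of both names is therefore not known.

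PIP1-5, the other PIP1 gene, changed sides along the leaf. At SST it held 49.9 and 51.4 FPKM in BS against 140 and 110 in M. At maturing the values were 189 and 165 FPKM in BS against 52.1 and 50.3 in M, and at mature 225 and 231 against 98.0 and 97.5. M was therefore above BS at SST and below it afterwards, with no overlap at any stage. Log2 BS/M stood at −1.29 (limma adjusted p = 0.0019) at SST, 1.78 (adjusted p = 0.00014) at maturing and 1.22 (adjusted p = 0.0014) at mature. The change of log2 BS/M from SST to maturing was 3.07 ± 0.20 (SE, limma adjusted p = 0.00032). Both cell types contributed, with a rise of 1.80 on the log2 scale in BS (adjusted p = 0.00011) and a fall in M, whose log2 change was −1.27 (adjusted p = 0.00085). From maturing to mature PIP1-5 rose by 0.93 in M (limma adjusted p = 0.0019), a call that was lost without either maturing M library (adjusted p = 0.0102 and 0.0118), while the change in BS was 0.37 (95% interval 0.05 to 0.69, adjusted p = 0.092). The log2 BS/M changed by −0.56 over that step (95% interval −1.01 to −0.11, adjusted p = 0.16). The lowest groups, SST BS and maturing M, overlapped, and the other neighbours in the order did not.

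Few genes of the table were called for a change of BS/M between stages. From SST to maturing 2 of the 8 genes, PIP1-5 and PIP2-1, were called as moving towards BS and none towards M, where 0.172% and 0.135% of all genes were called. From maturing to mature 1 of the 8, PIP2-1, was called as moving towards M and none towards BS, against 0.578% and 0.356% of all genes. With no adjustment of the p-value, 3 of the 8 genes passed 0.05 in the earlier step and 4 in the later one, where 15.7% and 18.5% of all genes tested did.

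PIP2-1, a water channel of the PIP2 group, was BS-enriched at maturing alone among the 3 stages. The SST libraries held 124 and 121 FPKM in BS against 136 and 136 in M. At maturing the gene stood at 200 and 203 FPKM in BS against 62.8 and 56.6 in M, and at mature at 296 and 264 in BS against 292 and 341 in M. M passed through a low at maturing, and the mature BS and M values overlapped. The log2 BS/M was −0.15 (95% interval −0.43 to 0.13, limma adjusted p = 0.53) at SST, 1.75 (adjusted p = 8.8e-05) at maturing and −0.18 (−0.46 to 0.11, adjusted p = 0.42) at mature. The tests of change gave 1.90 from SST to maturing (limma adjusted p = 0.0029) and −1.93 from maturing to mature (adjusted p = 0.0017). When the spread was fitted without its trend with abundance these adjusted p-values were 0.0215 and 0.0107, past the threshold in neither step. In M, PIP2-1 fell from SST to maturing (log2 change −1.18, adjusted p = 0.00072) and then rose by 2.40 (limma adjusted p = 1.0e-05), a 5.31-fold gain in mean level. In BS it rose by 0.72 from SST to maturing (limma adjusted p = 0.0047) but the call was lost when any of the 4 libraries of these groups was left out (adjusted p 0.0155 to 0.0201), and the later change was 0.47 (adjusted p = 0.025).

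PIP2-2, also of the PIP2 group, had the highest mean level of the 8 genes in 4 of the 6 groups, though in mature BS PIP2-5 was above it in replicate 2. Its libraries held 222 and 194 FPKM in SST BS against 82.0 and 103 in SST M, 475 and 373 against 145 and 132 at maturing, and 620 and 630 against 105 and 147 at mature. BS lay above M at each stage and the gap was widest at mature, where the ratio of means was 4.96. The log2 BS/M was 1.18 (limma adjusted p = 0.011) at SST, just short of the threshold, 1.61 (adjusted p = 0.0014) at maturing and 2.33 (adjusted p = 0.00039) at mature. At SST the gene was called with the values as deposited (adjusted p = 0.0086). The maturing call was lost without maturing BS replicate 1, maturing M replicate 1 or maturing M replicate 2 (adjusted p 0.0108 to 0.0147). No change of BS/M was called, at 0.43 (95% interval −0.22 to 1.09) and 0.72 (0.06 to 1.38) on the log2 scale. In BS the gene rose by 1.02 from SST to maturing (limma adjusted p = 0.0090), and this call was lost when any library other than the mature M ones was left out (adjusted p up to 0.0626) and with the values as deposited (0.0132). In M the log2 changes were 0.59 (95% interval 0.12 to 1.05) and −0.15 (−0.61 to 0.32), and neither was called. Maturing M and mature M overlapped in level. PIP2-1 and PIP2-2 are close in sequence, and how the authors shared reads between such copies is not given in the sources used here, so the split between them is uncertain.

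PIP2-3, a PIP2 gene of low level, was the one member called higher in M at all 3 stages. It held 2.16 and 1.80 FPKM in SST BS against 18.2 and 17.5 in SST M. At maturing the values were 0.796 and 0.778 FPKM in BS against 6.57 and 7.50 in M, and at mature 1.47 and 0.584 against 5.52 and 12.9. M exceeded BS in every library, by 9.01-fold, 8.94-fold and 8.95-fold in mean level. In log2 BS/M the differences were −3.02 (limma adjusted p = 0.0052), −2.80 (adjusted p = 0.0035) and −2.85 (adjusted p = 0.0046). At SST and at maturing the call was lost when any SST or maturing library was left out (adjusted p up to 0.0354 and 0.0338). At mature it was lost without any library but mature BS replicate 1 or mature M replicate 1 (adjusted p up to 0.0252). No change between stages was called in either cell type, and the log2 change from SST to maturing was −1.10 (95% interval −2.09 to −0.10) in BS and −1.32 (−2.31 to −0.32) in M. The summed epidermal markers were likewise higher in M, at 4.68 to 5.89 FPKM against 1.13 to 1.27 at SST, and their part in the M values was not tested. The mature M libraries differed 2.34-fold from each other and overlapped with maturing M, and mature BS overlapped with maturing BS.

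PIP2-4, another PIP2 gene, had its lower values in BS, but no BS/M call was made. The libraries held 18.1 and 20.6 FPKM in SST BS against 65.7 and 59.2 in SST M, 16.0 and 17.2 against 25.3 and 24.0 at maturing, and 23.5 and 21.1 against 28.9 and 77.5 at mature. BS lay below M at each stage, and the 2 mature M libraries stood 2.68-fold apart. The log2 BS/M was −1.68 (95% interval −2.54 to −0.82, limma adjusted p = 0.028), −0.56 (−1.43 to 0.30, adjusted p = 0.39) and −1.08 (−1.94 to −0.22, adjusted p = 0.099). Without mature M replicate 1, the lower of that pair, SST was called (adjusted p = 0.0014) and so was mature, with a log2 BS/M of −1.79 (adjusted p = 0.00054). Without mature M replicate 2, SST was called (adjusted p = 0.0015) and mature was not, at −0.37. In M the log2 change from SST to maturing was −1.33 (adjusted p = 0.043), and with either mature M library left out it was called (adjusted p = 0.0011 and 0.0012). SST M and mature M overlapped in level.

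PIP2-5, a PIP2 protein with strong water channel activity in oocytes, was near the bottom of the 8 genes until the mature stage. Its SST libraries held 3.02 and 3.18 FPKM in BS against 2.09 and 2.16 in M, and its maturing libraries 3.31 and 5.79 against 1.15 and 1.47. At mature they held 343 and 688 FPKM in BS and 102 and 113 in M. Every mature library was above every earlier one by a wide margin, while the mature BS libraries differed 2.01-fold. The mean rose 113-fold from maturing to mature in BS (log2 change 6.71 ± 0.35 SE, limma adjusted p = 9.4e-06) and 81.7-fold in M (6.11, adjusted p = 1.7e-05). By mean level its rank among the 47572 genes above 0 in any library went from 9686 to 311 in BS and from 14907 to 1090 in M. From SST to maturing the log2 change was 0.47 (95% interval −0.33 to 1.26) in BS and −0.61 (−1.41 to 0.19) in M. The log2 BS/M was 0.50 (95% interval −0.30 to 1.29, adjusted p = 0.44) at SST, 1.57 (adjusted p = 0.017) at maturing and 2.18 (adjusted p = 0.0057) at mature. With either mature BS library left out the maturing difference was called (adjusted p = 0.0083 and 0.0085). The mature call was lost without any library but maturing BS replicate 1 or mature BS replicate 1 (adjusted p up to 0.0317).

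PIP2-6, the last of the PIP2 genes, also rose at the mature stage and was called higher in BS at maturing and mature. At SST both BS libraries were above both M ones as well, short of the threshold. At SST it held 18.3 and 12.8 FPKM in BS against 4.90 and 5.53 in M. At maturing the values were 34.1 and 32.0 FPKM in BS against 1.46 and 2.13 in M, and at mature 436 and 462 against 173 and 95.3. No groups overlapped, and the widest gap between the cell types was the 18.4-fold one at maturing. Its log2 BS/M was 1.52 (limma adjusted p = 0.019) at SST, 4.04 (adjusted p = 0.00011) at maturing and 1.80 (adjusted p = 0.0069) at mature, the last lost without any library but mature M replicate 1 (adjusted p up to 0.0419). From maturing to mature the mean rose 13.6-fold in BS (log2 change 3.75, limma adjusted p = 8.1e-05) and 74.7-fold in M (5.99, adjusted p = 9.0e-06). The changes of log2 BS/M were 2.52 (95% interval 1.55 to 3.50, limma adjusted p = 0.029) and then −2.24 (−3.21 to −1.26, adjusted p = 0.029). The later one passed without mature M replicate 2 (−2.66, adjusted p = 0.0089). From SST to maturing the log2 change was 1.09 (95% interval 0.40 to 1.78, adjusted p = 0.035) in BS. In M it was −1.43 (adjusted p = 0.014), and it was called with either mature M library left out (adjusted p = 0.0081 and 0.0079).

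Counted along the leaf, 3 of the 8 genes (PIP1-5, PIP2-1 and PIP2-2) rose in BS from SST to maturing and none fell, where 6.1% of all genes rose and 5.01% fell. In M over the same step 2 (PIP1-5 and PIP2-1) fell and none rose, against 3.87% and 4.48% of all genes. From maturing to mature 3 (PIP1-3, PIP2-5 and PIP2-6) rose in BS and none fell, against 7.79% and 6.57%. In M over that step 5 (PIP1-3, PIP1-5, PIP2-1, PIP2-5 and PIP2-6) rose and none fell, against 7.31% and 6.95%. The median log2 change of the 8 genes was 0.59 and 0.52 in BS and −1.23 and 1.21 in M, and that of all genes tested was 0 in each. With no adjustment, 5 and 6 of the 8 genes passed 0.05 in the successive steps in BS and 6 and 6 in M, in either direction, against 32.0% and 35.2% of all genes in BS and 29.5% and 35.4% in M. The group means compared in BS and in M share no libraries, but successive steps share the maturing libraries. All these tests also share the spread of a gene, pooled over the 6 groups, so they are not independent.

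**Figure D4:**
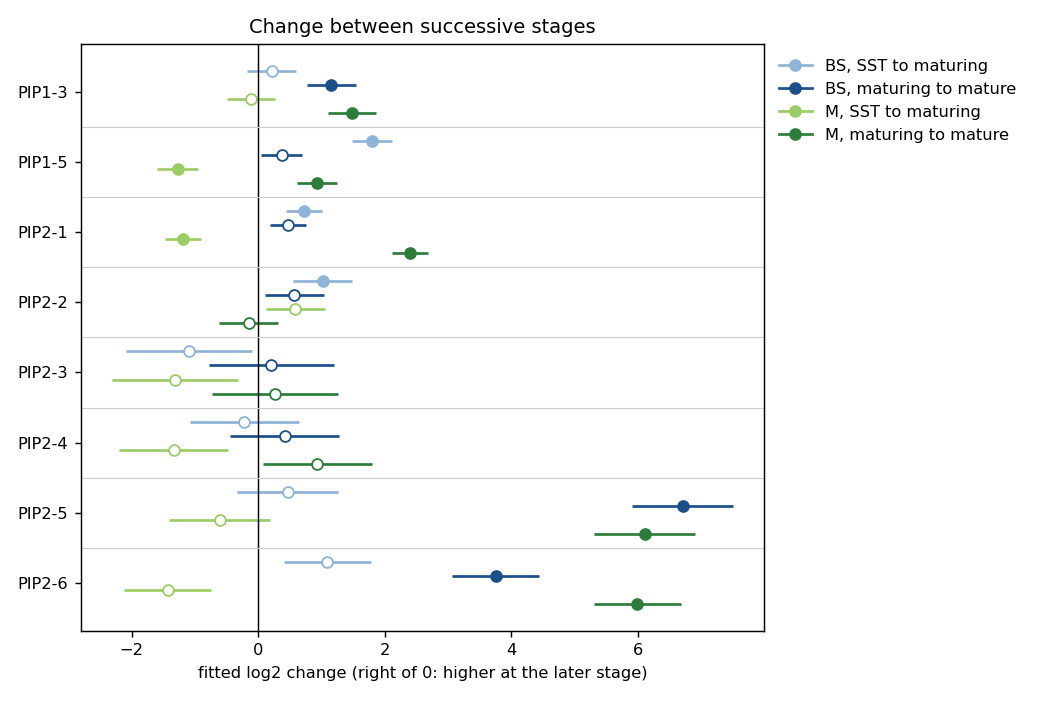
Fitted log2 change (x axis) of each PIP gene between successive stages in BS (blue) and M (green), with 95% confidence intervals as bars and filled points where limma's adjusted p was below 0.01. PIP2-5 and PIP2-6 lie between 3.75 and 6.71 from maturing to mature, and PIP1-5 and PIP2-1 move in opposite directions in BS and M from SST to maturing.

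The genes varied together to different degrees over the 12 libraries. On the log2 scale the closest pair was PIP2-5 with PIP2-6 (Pearson r = 0.94), followed by PIP2-1 with PIP2-6 (r = 0.91). PIP2-1 and PIP2-6 are also neighbours on a chromosome, with 2 reference entries between them, and over the maturing to mature step in BS their means rose 1.39-fold and 13.6-fold. The most opposed pair was PIP2-2 with PIP2-3 (r = −0.90), while PIP2-3 and PIP2-4, both with higher means in M at each stage, gave r = 0.86. The part of reads shared between PIP2-3 and PIP2-4 in that value was not tested. These coefficients describe 12 libraries that fall into 6 groups and share their scaling, and carry no test.

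Among 78 other genes with a reference symbol other than a locus number and a mean level above the upper quartile, the one most like each member over the 12 libraries was also noted. PIP2-5 was closest to opr6 (r = 0.94), PIP1-3 to opr7 (r = 0.94), PIP2-6 to URM1 (r = 0.93), PIP2-2 to pho1 (r = 0.91) and PIP2-3 to aos1 (r = 0.89). PIP2-1 was again closest to URM1 (r = 0.88), PIP1-5 to sfp3 (r = 0.87) and PIP2-4, the least matched, to pco097024a (r = 0.72). Each r was the highest of 78 candidates and carries no test. A high r also does not mean the same cell bias. Before mature, opr6 had group means of 0.359 FPKM or less. At mature it was at 60.5 FPKM in M against 40.2 in BS, where PIP2-5 was higher in BS.

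The rest of the aquaporin family gives the setting. Of 20 other aquaporin genes found in the reference annotation, which include tonoplast (TIP), nodulin 26-like (NIP) and small basic (SIP) types, 15 were tested, and 1, 3 and 2 were called higher in BS at SST, maturing and mature, with none higher in M. The PIP1-1 gene, a PIP outside the 8, had a higher mean level than any of them in every group, at 504 and 552 FPKM in BS against 498 and 635 in M for SST, 580 and 499 against 413 and 535 for maturing, and 940 and 1012 against 1433 and 1899 for mature. It was called between BS and M at no stage (limma adjusted p = 0.94, 0.63 and 0.041), and it rose in M from maturing to mature (log2 change 1.81, adjusted p = 0.00044). With PIP1-1 added, the family total was 1013 ± 13.1 FPKM (SD, n = 2) in SST BS against 1030 ± 89.7 in SST M, 1471 ± 150 against 779 ± 69.7 at maturing, and 3262 ± 309 against 2570 ± 392 at mature. The BS totals at maturing and mature were still above those of M in every library, but by a smaller ratio than for the 8 genes alone. The shares and leading members given earlier are of the 8-gene total. By mean level, PIP1-1 would be the largest member of the wider total in every group. PIP1-2 of the reference annotation was matched to no row of the expression table and is in neither total. Entries named TIP1-1, TIP5-1 and TIP4-2 were also matched to no row, though another TIP4-2 entry was matched.

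The silicon channel gene NIP2-1 was called higher in BS at all 3 stages, with mean levels of 79.7, 314 and 334 FPKM in BS against 11.2, 10.4 and 17.3 in M, and NIP2-2 at maturing and mature. TIP2-1, a channel of the vacuolar membrane, stood at means of 604, 810 and 833 FPKM in BS against 369, 307 and 493 in M and was called at maturing (limma adjusted p = 0.0072). The remaining genes named by the rule on level, NIP2-3, SIP1-1 and TIP4-2, were called at no stage.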

How the data were processed

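RNA was taken from laser-captured BS and M cells, amplified by 1 round and sequenced as 12 libraries. Per the submitters' processing notes the tools were CASAVA 1.3, TopHat2 2.0.10 and Cuffdiff 2.1.1, and the build B73 RefGen_v3, while the study's methods name an earlier assembly. The authors deposited FPKM per gene. No read counts were used and total depth is unknown, but the steps of the low values put relative depth between 0.646 and 2.36 of SST BS replicate 1. Depth went with stage, at 2.31 to 2.36 in the maturing libraries and 0.646 to 1.21 in those of SST and mature. Its part in the differences between stages was not tested. Genes above 0 in only 1 library had median values of 0.134 to 0.466 FPKM there. Amplification favours 3′ ends, which limits comparison of levels between genes.

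Groups came from the labels, whose leaf sections 4, 9 and 14 were matched to the stated positions by their order and equal spacing. The libraries were brought to the same upper quartile, taken over the 47572 genes above 0 in any library. The 32548 genes whose mean reached 0.255 FPKM in some group were tested with limma 3.58.1 in R 4.3.3 on log2(FPKM + 0.255), with 6 residual and 2.12 prior degrees of freedom, two-sided, for 9 comparisons each adjusted over all genes. The fit was also run on simulated data with independent normal noise on the log2 scale. As limma assumes such noise, that run does not show how the fit behaves on amplified FPKM. The threshold of 0.01 and the scaling follow the study's methods, whose count test could not be used on FPKM. Family totals and shares have no test. Alternatives were the scaling, the pseudocount, the filter, the model of the spread, a replicate block and leaving out each library.

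All 8 members are described in full. Other aquaporins were found by symbol or synonym in a RefSeq gene table (assembly Zm-B73-REFERENCE-NAM-5.0, used for names and neighbours only). They were named where their mean reached that of the lowest member or they were called at 2 or more stages. The members and lists were chosen with earlier results of these data known. Sequences were not analysed here.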

Additional observations from a re-analysis of the deposited data

Results flagged for a closer look

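In 2 of the 8 genes the BS/M difference was itself different between stages by a test of that change, and each is a result to look at again. For PIP1-5 the change of log2 BS/M from SST to maturing was 3.07 (limma adjusted p = 0.00032), with both SST M libraries above both SST BS ones and both maturing BS libraries above both maturing M ones, and it lay between 2.90 and 3.24 whichever library was left out. For PIP2-1 the change was 1.90 from SST to maturing (limma adjusted p = 0.0029) and −1.93 from maturing to mature (adjusted p = 0.0017), and with any library left out these lay between 1.83 and 1.96 and between −2.05 and −1.81. Without the trend of the spread both PIP2-1 changes missed the threshold (adjusted p = 0.0215 and 0.0107). The sum of BS markers was 8208 to 8919 FPKM in SST BS, 20231 to 21576 in maturing BS and 21345 to 32011 in mature BS, and in M 1209 to 1220, 789 to 849 and 2031 to 2476 at these stages, and its part in these changes was not tested.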

How the results depend on the processing

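Of the 31 calls for the 8 genes, 19 held in every alternative except separate fits, 21 held whichever single library was left out, and 26 were lost in separate fits. Separate fits of the groups compared left 0 of the 8 genes higher in BS or M at SST, maturing and mature, 0 rising in BS and 0 falling in M from SST to maturing, and 1 rising from maturing to mature in BS and in M. The 15 BS/M calls then had limma adjusted p-values of 0.0138 to 0.231. Over all genes tested, separate fits called 0 between BS and M at SST and at mature, and 198 higher in BS and 169 in M at maturing. At SST, 2 genes were higher in BS with values as deposited, with median-of-ratios scaling and with a filter of 1 FPKM. From SST to maturing in BS, 1 rose with median-of-ratios scaling and 1 without the trend of the spread. Without that trend 1 gene moved towards BS from SST to maturing and 0 towards M from maturing to mature. Single calls were also lost for PIP2-1 rising in BS from SST to maturing with median-of-ratios scaling (adjusted p = 0.0117), PIP1-5 rising in M from maturing to mature without the trend (0.0121), and PIP2-6 at mature with no filter (0.0101) or no trend (0.0126). Values as deposited added PIP2-5 at maturing (0.0097) and the fall of PIP2-6 in M from SST to maturing (0.0094).

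With a replicate block 1 gene was higher in M at SST, since PIP2-3 had an adjusted p of 0.0117 there. The block also lost PIP2-2 in BS from SST to maturing (adjusted p = 0.0159) and PIP2-6 at mature (0.0123), and gained PIP2-5 at maturing (0.0094). The differences between replicates correlated at −0.058 to 0.044 between groups, so no effect shared by replicate number was seen. These values cannot tell whether libraries of a replicate number came from the same plants or preparation.

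Family totals as deposited were 529 FPKM in SST BS, 496 in SST M and 274 in maturing M, and with median-of-ratios scaling 545, 501 and 279. Leaving out 1 library gave 1 to 3 genes higher in M at SST, 0 to 1 at maturing and 0 to 2 at mature, 3 to 4 higher in BS at mature, 1 to 3 rising in BS and 2 to 4 falling in M from SST to maturing, and 1 to 2 moving towards M from maturing to mature. Differences that were not called and changed sign ranged from −0.29 to 0.049 for PIP1-3 in M from SST to maturing. From maturing to mature they ranged from −0.39 to 0.10 for PIP2-2 in M, from −0.31 to 0.73 for PIP2-3 in BS, from −0.33 to 0.86 for PIP2-3 in M, and, for the change of log2 BS/M, from −0.65 to 0.54 for PIP2-3 and from −1.23 to 0.19 for PIP2-4. The cause of these shifts was not tested.

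With the scaling used, genes above the upper quartile had a median log2 BS/M of −0.15 at maturing (0 as deposited) and median changes from SST to maturing of 0.25 in BS and 0.23 in M (0.14 and 0 as deposited). At maturing 1570 genes were higher in BS and 1159 in M, and 1758 and 848 as deposited. Groups of 2 libraries limit the precision.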
